A study of Drosophila melanogaster with 2 samples.

Results

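The 3793 regions that rank directly below the thresholded peak list of a Tio ChIP-seq experiment in Drosophila melanogaster embryos are described here. They were chosen by the pooled signal: the pooled list of 30000 regions was sorted by its signal value, and ranks 3794 to 7586 were taken, as many regions as the thresholded list holds. These regions, called members below, are 12.6% of the pooled list. Ranks 1 to 3793 are exactly the thresholded list, which was made with the irreproducible discovery rate (IDR), a measure of how well the ranks of peaks hold between replicates, and is called the IDR list below. Ranks 7587 to 11379 are called the next band, and the 3793 regions of lowest signal the lowest regions. The chromatin came from whole embryos of mixed sex, 4 to 24 h old by the source label (the separate age label holds an hour count that cannot be an embryo's age), of a line that stably carries a transgene for tio with eGFP fused to its C-terminus. It was sonicated to 200 to 800 bp and precipitated with an antibody against GFP. The design had 1 group of 2 biological replicates, so no condition could be set against another; a control had entered the authors' lists, per the deposited notes, and was itself not analysed here. The tagged protein came from an inserted transgene, and each library mixed all tissues and stages of the collection, so no region can be assigned to a cell type. Read depth is unknown for both libraries. With 2 replicates, the smallest 2-sided p that an exact permutation test over samples can give is 0.5, so what follows is description.

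The gene tiptop (tio) encodes a transcription factor of the zinc finger class and is the paralog of teashirt (tsh), a homeotic gene of the embryonic trunk. Such factors bind DNA at promoters and at distant control regions, and ChIP-seq recovers the bound fragments as peaks whose summit marks the highest signal. A peak list cut at a threshold leaves out weaker sites together with background, and a ranked list does not label them.

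To show what the members look like as DNA, 81 bases centred on the summit are printed for 5 of them, read from the plus strand of the RefSeq genome sequence of build dm6. The first 4 are among the 10 members with the highest pooled signal, and the last is the lowest member. Capitals mark matches, on either strand, to any of the 16 short motifs searched. Those that occur in these windows are CAGTGC and TTAAAA, both 6-mers named in earlier results of these data, the homeodomain core TAATTA, the Su(H) motif TTCCCAC and the CA repeat CACACACA, which here stands on the minus strand. The twin window holds none of the 16. The first window lies in an intron of sprint (spri, X:10515426-10515506). The second is centred 284 bp upstream of a start of ND-49 (4:571034-571114), and the third 543 bp upstream of a start of Prps (3L:9695944-9696024). Both of these summits lie within the annotated span of the gene. The fourth window lies in an intron of Notch (N, X:3157484-3157564) and the last in an intron of twin (3R:24205022-24205102).
spri intron: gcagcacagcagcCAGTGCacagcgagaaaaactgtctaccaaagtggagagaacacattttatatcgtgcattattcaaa
ND-49 promoter: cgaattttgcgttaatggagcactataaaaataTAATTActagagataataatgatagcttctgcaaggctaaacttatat
Prps promoter: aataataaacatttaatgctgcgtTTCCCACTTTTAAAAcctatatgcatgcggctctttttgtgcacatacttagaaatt
N intron: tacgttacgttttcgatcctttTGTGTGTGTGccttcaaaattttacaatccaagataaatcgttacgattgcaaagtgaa
twin intron: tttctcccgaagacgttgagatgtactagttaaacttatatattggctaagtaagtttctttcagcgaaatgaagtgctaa

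A pair of longer sequences shows a feature of 245 of the members (6.46%), a summit 199 to 250 bp from a stronger summit of the IDR list, in these examples at the higher coordinate. The bases from 20 before the IDR summit to 20 after the member summit are printed from the plus strand of dm6, with 11 capitals centred on each summit, the IDR summit standing first in the sequence. The CG13085 pair (2L:19423781-19424022) has its summits 201 bp apart, and the Amalgam (Ama) pair (3R:6760812-6761054) has them 202 bp apart. At CG13085 the member had a pooled signal of 75.1, against 675 for the IDR peak. At Ama the member had 87.2 and the IDR peak 158.
CG13085 pair: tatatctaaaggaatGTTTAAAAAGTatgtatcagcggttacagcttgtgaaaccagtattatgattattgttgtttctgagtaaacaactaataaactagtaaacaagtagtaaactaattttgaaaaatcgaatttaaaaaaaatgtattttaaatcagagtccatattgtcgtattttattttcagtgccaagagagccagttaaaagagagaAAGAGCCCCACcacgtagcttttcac
Ama pair: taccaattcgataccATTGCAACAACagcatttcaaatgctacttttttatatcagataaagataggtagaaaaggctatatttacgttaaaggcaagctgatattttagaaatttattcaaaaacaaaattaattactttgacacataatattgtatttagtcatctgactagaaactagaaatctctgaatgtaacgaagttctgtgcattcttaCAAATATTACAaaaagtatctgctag

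The pooled signal of the members ran from 56.2 to 87.5 with a median of 65.8, against a range of 87.5 to 2078 with a median of 145 in the IDR list and a range of 46.6 to 56.2 in the next band. These values chose the members and are given only to describe them. The signal is the authors' own, and its scaling is not given in the sources used here. The deposited q-values of the members lay between 0.0277 and 0.250 with a median of 0.138, and 562 members (14.8%) had a q-value of at most 0.05, as did the whole IDR list, no region of the next band and 4355 (14.5%) of all pooled regions. The width was 436 bp in 3784 members (99.8%), against 2993 regions (78.9%) of the IDR list. At the upper limit, the first member (rank 3794, the spri intron) had a signal of 87.51, and the last IDR peak (rank 3793, 3R, summit 31688047, at a promoter of lncRNA:CR45564) had 87.54. At the lower limit, the last member (rank 7586, the twin intron) had 56.19, and the first region outside (rank 7587, in an intron of smal) had the same signal to 2 decimals.

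**Figure D1:**
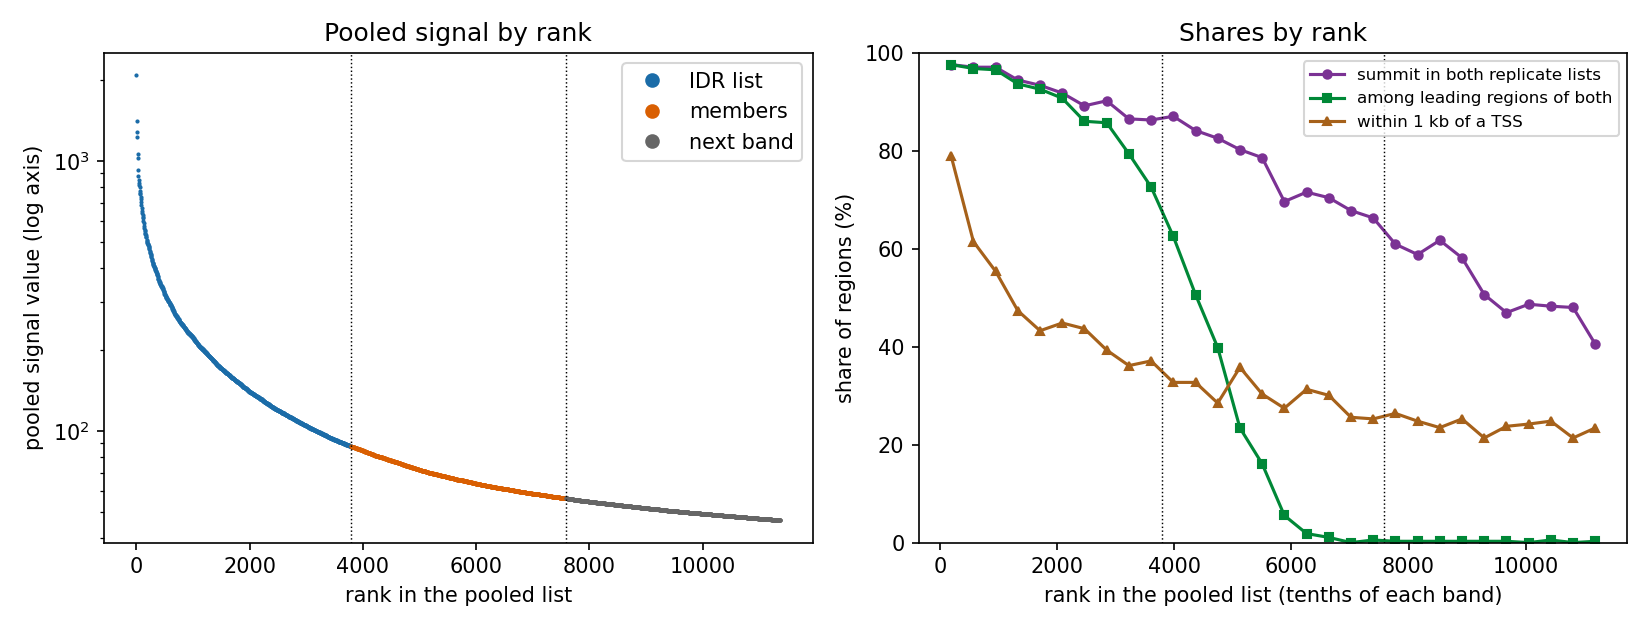
Left, pooled signal (log axis) against rank for the IDR list, the members and the next band. Right, for 10 equal runs of ranks in each band, the share of regions with a summit in both replicate lists, the share among the leading regions of both and the share at promoters; the share in both lists is 86.3% just above the upper limit and 87.1% just below it.

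Along the ranks, the members ran on from the IDR list with a gradual change. Each band was cut into 10 equal runs of ranks. The share with a summit in both replicate lists was 86.3% in the last run of the IDR list, 87.1% in the first run of the members, 66.3% in their last run and 60.9% in the first run of the next band. The promoter share in the same runs was 37.1%, 32.7%, 25.3% and 26.4%. The share among the first 7586 ranks of both replicate lists was 72.6%, 62.5%, 0.526% and 0.264%, so this measure changed most inside the band. Replicate signal is part of the pooled signal that set the ranks, so the replicate shares are not independent of the choice of members.

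Of the 10 members of highest signal, 6 lay at promoters, 2 in introns, 1 in a 3 prime UTR and 1 between genes. The spri member, in the gene of a Ras and Rab regulator, had a signal of 37.3 in replicate 1 and 50.6 in replicate 2, at ranks 5901 and 3279. The ND-49 member, at the gene of a subunit of mitochondrial complex I, had 39.6 in replicate 1 and 48.6 in replicate 2. At Prps, which encodes phosphoribosyl pyrophosphate synthetase, the values were 42.7 and 40.7, the most even pair of these 10. The N member, in the gene of the Notch receptor, had 52.9 in replicate 1 and 26.7 in replicate 2, so it ranked high in replicate 1 (3396) and lower in replicate 2 (10092). The other 6 had start sites of Or42a (an odorant receptor gene), Not3 (a subunit of the deadenylase complex CCR4-NOT), CG10874, Aldh (aldehyde dehydrogenase), CG6891 and Maf1 (a repressor of RNA polymerase III) as their nearest protein-coding ones. The Not3 member, 67 bp from the start of lncRNA:CR45472, was the least even of the 10, with 22.0 in replicate 1 and 55.4 in replicate 2.

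The next question was how far each replicate alone held the members. A member counted as found in a replicate list if a summit of that list lay within 100 bp. Of the members, 2877 (75.9%, Wilson 95% interval 74.5 to 77.2, counting error only) were found in both lists, against 3504 (92.4%) of the IDR list, 1983 (52.3%) of the next band, 38 (1.00%) of the lowest regions and 34.8% of all pooled regions. A further 462 members were found in replicate 1 only, 418 in replicate 2 only and 36 in neither. The replicate lists end at signals of 18.0 in replicate 1 and 16.1 in replicate 2. Both replicate signals together come close to the pooled signal, so a region of low pooled signal can hardly be in both lists. The lowest regions had pooled signals of at most 32.0, so their share was bounded by these ends. The shares of the next band and of all pooled regions are bounded likewise, and how far was not tested. The median rank of the members found in both was 6781 in replicate 1 and 7184 in replicate 2, of 30000 regions in each list, against 7297 and 7647 for all matched pooled regions. Among the first 7586 ranks of both replicate lists there were 764 members (20.1%), against 3383 regions (89.2%) of the IDR list and 13.9% of all pooled regions. Among the first 3793 ranks of both there were 5 members, against 2582 regions (68.1%) of the IDR list and 8.63% of all pooled regions. Within the first 3793 ranks of exactly 1 replicate there were 563 members (14.8%), against 1075 regions (28.3%) of the IDR list, 31 (0.817%) of the next band and 5.66% of all pooled regions. Both rank cuts are limits of the band itself, and a region high in both replicates is placed in the IDR list by the choice. These counts of leading regions are therefore description only.

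**Figure D2:**
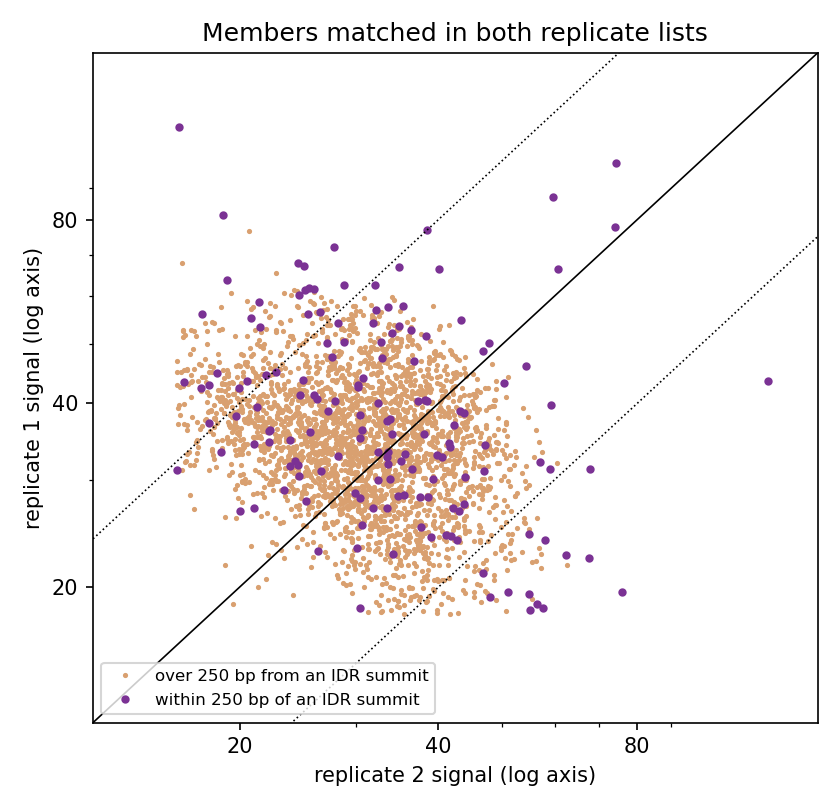
Signal in replicate 1 against signal in replicate 2 (both log axes) for the 2877 members found in both lists; the solid line marks equal values, the dotted lines a 2-fold difference, and purple points lie within 250 bp of an IDR summit. Of the 323 points outside the dotted lines, 246 are higher in replicate 1.

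The signals of both replicates were then set against each other; whether their scales are comparable is not known, and the median offset between them was not removed. Across the 2877 members the log2 ratio, replicate 1 over replicate 2, had a median of 0.16 and an SD of 0.61, against 0.16 and 0.46 in the IDR list and 0.15 and 0.48 in the next band. More than a 2-fold difference was found in 323 members (11.2%), against 173 regions (4.94%) of the IDR list, 63 (3.18%) of the next band and 5.47% of all matched regions. Of the 323, 246 were higher in replicate 1 and 77 in replicate 2. The replicate lists end at signals of 18.0 in replicate 1 and 16.1 in replicate 2, and both replicate signals together come close to the pooled signal. This leaves a matched region of the next band little room for a 2-fold difference, and it bounds the ratios of the members as well. The SDs and shares of the bands are therefore not directly comparable. How far these limits shape them was not tested. Spearman's rho across the members was -0.27, against 0.79 across the 3504 matched regions of the IDR list and -0.53 across the 1983 of the next band. The points share both libraries, and within a narrow band of pooled signal a region high in one replicate tends to be low in the other by the choice itself, so the coefficients of the bands and of the IDR list are not alike in kind.

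The member with the highest ratio lay 1717 bp from the start of CG33467 (2R, summit 15054524), with 113 in replicate 1 and 16.2 in replicate 2. The lowest ratio was 676 bp upstream of wech (2R, summit 7490499), with 19.6 in replicate 1 and 75.8 in replicate 2. In rank, the CG33467 member stood at 1103 and 29431 and the wech member at 25379 and 1854, so each led in 1 library and was near the end of the other. Next at the high end were the members nearest to veil, ND-B17 (complex I), RYBP (a Polycomb-associated protein) and CG14441, with log2 ratios of 2.11, 2.06, 1.89 and 1.73. At the low end were those nearest to scyl (an inhibitor of TOR signalling), Tis11 (an mRNA decay factor), Spn (spinophilin) and Ama (an adhesion protein), with log2 ratios between -1.64 and -1.58.

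Of these 10 uneven members, 8 lay 199 to 211 bp from an IDR summit, which led to the distances of all members. Within 1 kb of an IDR summit lay 501 members (13.2%, Wilson 95% interval 12.2 to 14.3), against 282 regions (7.43%) of the next band, 139 (3.66%) of the lowest regions and 6.19% of all regions outside the IDR list. The distances were not spread evenly. No member lay closer than 199 bp, 245 lay at 199 to 250 bp, 22 at 251 to 500 bp and 234 at 501 to 1000 bp. The 199 to 250 bp interval held 106 regions (2.79%) of the next band, 33 (0.870%) of the lowest regions and 2.35% of all regions outside the IDR list. In the pooled list, in the IDR list and in both replicate lists the smallest distance between neighbouring summits was likewise 199 bp.

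**Figure D3:**
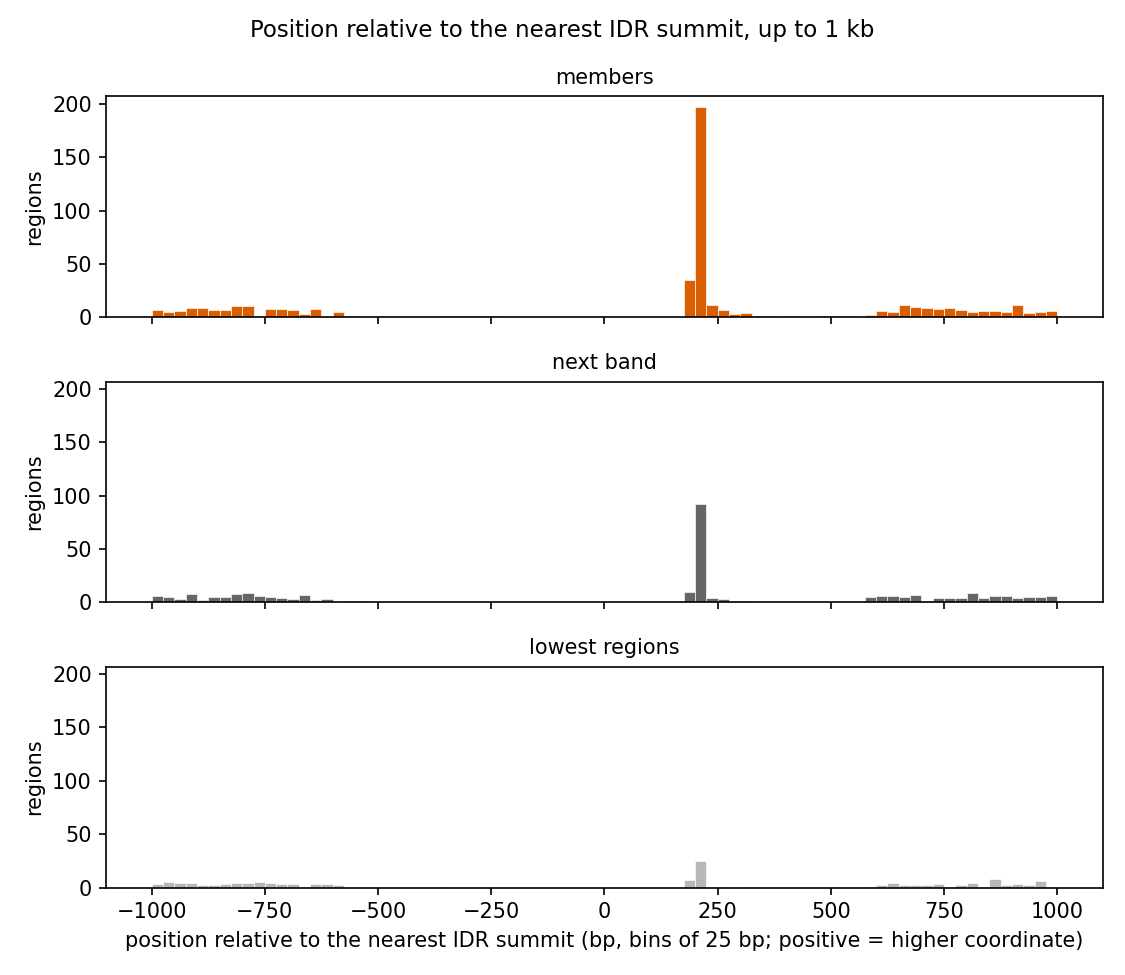
Number of regions per 25 bp by position relative to the nearest IDR summit for the members, the next band and the lowest regions; positive positions lie at the higher coordinate. Of the regions within 250 bp, 244 of 245 members, 106 of 106 in the next band and 33 of 33 among the lowest regions stand on the higher-coordinate side.

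Of the 245 members within 250 bp, 244 lay at the higher coordinate of the IDR summit and 1 at the lower. Between 251 and 500 bp, 18 of 22 did so, between 501 and 1000 bp 120 of 234, and between 1001 and 5000 bp 514 of 1036. The side did not follow the direction of genes: 132 of 132 such members nearest to a gene start on the plus strand and 112 of 113 nearest to one on the minus strand lay at the higher coordinate. The next band gave 106 of 106 and the lowest regions 33 of 33. The replicate lists were alike: for pairs of neighbouring summits up to 250 bp apart, the weaker summit lay at the higher coordinate in 2132 of 2361 pairs (90.3%) of replicate 1 and in 2346 of 2577 pairs (91.0%) of replicate 2. For pairs 501 to 1000 bp apart these shares were 46.3% and 47.0%. What makes the side so uneven was not tested.

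These near neighbours carried several of the exceptional values of the members. Both replicates held 152 of the 245 (62.0%), against 76.8% of the 3548 members beyond 250 bp. The SD of their log2 ratio was 0.84, against 0.59 beyond 250 bp, and a difference of more than 2-fold was found in 40 of the 152 (26.3%), against 10.4% of the matched members beyond 250 bp. All 5 members within the first 3793 ranks of both replicates were among them. So were 9 of the 36 members found in neither list and all 9 members of another width than 436 bp, which were 112 to 434 bp wide. The 5 were nearest to CG13085 (and within Pax, which encodes paxillin), bin (biniou, a Forkhead factor of the visceral mesoderm), dls, CG32425 and CG5004.

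The CG13085 member printed above had 98.9 in replicate 1 and 74.2 in replicate 2, beside an IDR peak with 373 and 300. At bin the member had 77.8 in replicate 1 and 74.1 in replicate 2, beside an IDR peak 213 bp away with 225 and 128. Both members were even between the replicates and far below their neighbours. At Ama, the other pair printed above, the member had 18.4 in replicate 1 and 55.0 in replicate 2, and the IDR peak had 67.4 and 84.9. Among the members found in neither list, the one at the start of Nubp2 (an iron-sulfur cluster assembly factor, 3L, summit 20526582) had a pooled signal of 79.1. It was named after its values were seen. The nearest replicate summits lay 188 and 170 bp away, with signals of 329 and 296 at ranks 113 and 110. No replicate summit was matched within 100 bp both to a member and to an IDR peak, but 27 of the matched summits of replicate 1 and 21 of replicate 2 were also the nearest to an IDR summit. The summits matched to the dls member in both replicates and to the Spn member in replicate 2 are among these.

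Annotation classes were assigned from the summit, with promoters (at most 1 kb from any transcription start in the annotation) taken before exons, introns and intergenic sequence. Promoters held 1137 members (30.0%, Wilson 95% interval 28.5 to 31.5), against 1849 regions (48.7%) of the IDR list, 906 (23.9%) of the next band, 783 (20.6%) of the lowest regions and 25.7% of all pooled regions. Introns held 1677 members (44.2%), against 35.8% of the IDR list and 43.9% of all pooled regions. Intergenic sequence held 844 members (22.3%), against 14.0% of the IDR list and 24.6% of all pooled regions. In 3 prime UTRs lay 81 members (2.14%), against 0.501% of the IDR list and 2.97% of all pooled regions. Coding exons held 28 members (0.738%), against 0.185% of the IDR list and 2.06% of all pooled regions. In promoters, intergenic sequence, 3 prime UTRs and coding exons the members stood between the IDR list and the pooled regions as a whole, and in introns they stood slightly above both. In each replicate's own list, ranks 3794 to 7586 held 28.7% promoters in replicate 1 and 32.2% in replicate 2, against 50.3% and 52.4% in its first 3793 ranks. The promoter share was lower in both replicates. An exact permutation test over 2 replicates that differ in the same direction can only give a 2-sided p of 0.5, as it did here.

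Of 941 members within 1 kb of a protein-coding start site, 642 (68.2%) lay upstream of it. The share was 79.0% in the IDR list, 61.7% in the next band, 55.2% in the lowest regions and 63.9% over all pooled regions. The median position of the 941 members was -190 bp, against -182 bp in the IDR list, -152 bp in the next band and -89 bp in the lowest regions. The members were thus upstream more often than lower-ranked regions and less often than the IDR list, as counts without a test. The members within 250 bp of an IDR summit lay at promoters in 118 cases (48.2%), against 28.7% of those beyond it. Promoter members were found in both replicates in 74.8% of cases and intron members in 76.3%.

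**Figure D4:**
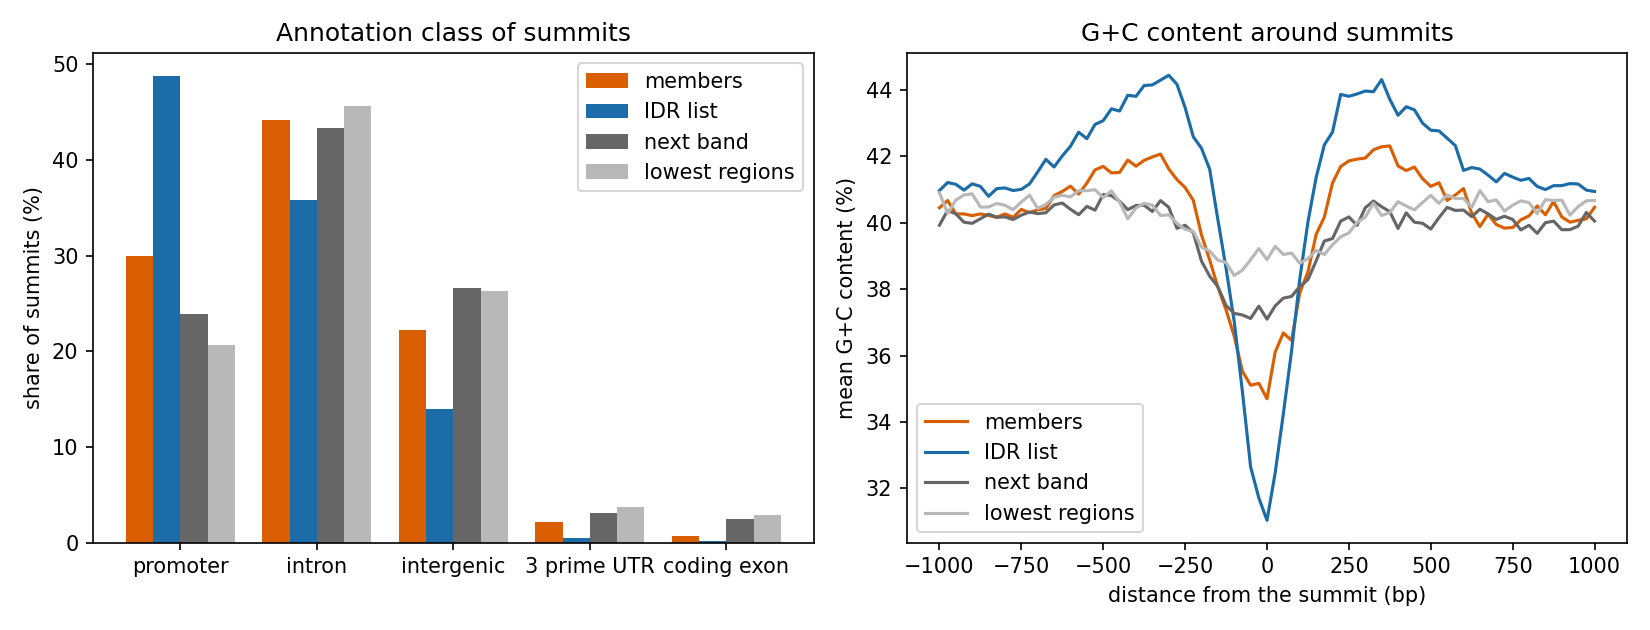
Left, share of summits in each annotation class for the members, the IDR list, the next band and the lowest regions. Right, mean G+C content in windows of 25 bp against distance from the summit; at the summit it is 34.7% in the members, 31.0% in the IDR list and 37.1% in the next band.

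Member summits lay in A+T-rich sequence between flanks with more G+C. Over 201 bp on the summit the mean G+C content was 35.8% ± 6.25 (SD across 3793 members), against 33.8% ± 5.99 in the IDR list, 37.5% ± 6.53 in the next band and 38.9% ± 7.06 in the lowest regions. In windows centred 500 bp to either side it was 41.3% in the members and 43.0% in the IDR list. The summit held less G+C than its flanks in 2719 members (71.7%). This was so in 85.2% of the IDR list, 61.4% of the next band, 56.9% of the lowest regions and 63.6% of all pooled regions. In the replicates' own lists the same ranks had 36.9% in replicate 1 and 35.7% in replicate 2, against 34.1% and 33.7% in the first 3793 ranks.

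Motifs were counted as the share of 201 bp summit windows with a match on either strand. TTAAAA was in 46.3% of member windows and 30.1% of their flanks, against 54.0% and 25.7% in the IDR list and 40.9% of all pooled windows. CAGTGC was in 14.2% of member windows and 8.25% of flanks, against 16.4% and 9.64% in the IDR list and 11.3% of all pooled windows. The homeodomain core TAATTA was in 16.2% of member windows and 13.8% of flanks, against 19.1% and 11.8% in the IDR list and 15.7% of all pooled windows. All 3 were more frequent at member summits than in the flanks, by less than in the IDR list. Summit windows and flanks also differ in G+C content, as given above, and its part in these shares was not tested.

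The Forkhead motif TGTTTAC was in 6.25% of member windows and 3.99% of flanks, against 5.69% and 4.63% in the IDR list and 5.19% of all pooled windows. Its excess over the flanks was 2.25 points in the members, 1.07 in the IDR list and 1.36 in the next band. In the replicates' own lists the same ranks gave 1.77 points in replicate 1 and 1.38 in replicate 2, against 1.27 and 1.20 in the first 3793 ranks. TATCGATA, the motif of DREF and BEAF-32, was in 36 members (0.949%), against 56 regions (1.48%) of the IDR list and 0.740% of all pooled windows. Other motifs were less frequent at the summit than in the flanks, in the members and in the IDR list alike. CACACACA was in 3.22% of member windows and 6.08% of flanks (3.59% of all pooled windows), the E-box CAGCTG in 6.35% and 8.30% (6.72% of all) and the Trl motif GAGAGAG in 2.69% and 3.68% (2.38% of all).

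The Hth motif TGACAG was likewise less frequent at the summit, with 6.75% of member windows and 8.11% of flanks (7.60% of all pooled windows). The E-box CATATG was in 7.43% of member windows (6.91% of all), the GATA motif AGATAAG in 3.08% (2.72% of all), the Zelda motif CAGGTAG in 0.791% (0.863% of all) and the M1BP motif GGTCACACT in 0.422% (0.158% of flanks, 0.240% of all), which is 16 members. The Scalloped motif ACATTCC was in 2.32% (2.35% of all), the Exd-Hox motif TGATTTAT in 2.58% (2.61% of all) and the Su(H) motif TTCCCAC in 2.50% (2.58% of all). In all, 9 of the 16 motifs were more frequent at member summits than in the flanks. The same motifs were so over all pooled regions and in the lowest regions too, so this count is no trait of the members. A match to letters is a description and not a bound site.

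The small arm 4, which is known for its heterochromatin, held 73 members, 1.91 times its share of the arms' length. It held 15 regions (0.393 times) of the IDR list and 83 (2.17 times) of the next band. Of all pooled regions it held 506 (1.675 times) and of the lowest regions 64 (1.68 times). In the replicates' own lists the same ranks gave 1.44 times in replicate 1 and 2.04 times in replicate 2, against 0.524 and 0.367 times in the first 3793 ranks. On this arm the members thus resembled lower-ranked regions more than the IDR list. Of the 73 members, 32 (43.8%) lay at promoters, 53 were found in both replicates and 5 lay within 1 kb of an IDR summit. Among them were the member at ND-49 and one 700 bp upstream of a start of eyeless (ey, the Pax6 gene of eye development). The ey member had 38.9 in replicate 1 and 44.5 in replicate 2. On X lay 608 members (0.912 times), against 698 (1.05 times) of the IDR list, 444 (0.666 times) of the next band and 0.806 times for all pooled regions. No member lay off the 6 main arms.

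A gene held a member if a summit lay within its span or up to 1 kb upstream. Of 13945 protein-coding genes on the main arms, 1813 (13.0%) held a member and 2256 held an IDR peak. Both were held by 890 genes, and 923 genes held a member and no IDR peak. A member was held by 39.5% of the genes with an IDR peak and by 7.90% of the genes without one. Genes with a member were long, with a median span of 13174 bp, against 2166 bp for all protein-coding genes, and a long gene catches more summits of any kind. Of the members, 2752 (72.6%) lay in a protein-coding gene so defined, and 1802 (47.5%) in a gene that also held an IDR peak. More than 5 kb from any IDR summit and away from every gene with an IDR peak lay 1440 members (38.0%). The last 3 shares were not counted for other regions, so whether they set the members apart was not tested. By distance alone, 40.5% of the members lay within 5 kb of an IDR summit, against 30.1% of the next band and 20.7% of the lowest regions. The 5 of highest signal among the 1440 were the members at ND-49, Or42a, Not3 and CG10874 named above and one in an intron of Picot. The Picot member had 41.2 in replicate 1 and 40.8 in replicate 2.

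The most members lay in kirre, which encodes an adhesion protein of muscle founder cells, with 21 members, all intronic, and 17 IDR peaks over 394149 bp. The Wingless receptor gene fz2 had 16 members and 3 IDR peaks over 94399 bp. Of the 16, which had pooled signals of 59.4 to 86.7, 14 were found in both replicates. Those 14 had signals between 23.3 and 46.1 with a median of 36.0 in replicate 1 and between 21.0 and 60.5 with a median of 35.7 in replicate 2. The 3 IDR peaks of fz2 had pooled signals of 90.6, 94.7 and 107, so the rank limit fell within a close run of signals in this gene. Next came rdx (an adaptor of the ubiquitin ligase that targets Ci) with 12 members and 7 IDR peaks, hth (homothorax, a homeodomain partner of the Hox proteins) with 11 and 5, and px (plexus) with 11 and 4. In hth the members had pooled signals of 57.5 to 85.7, against 104 to 193 in its IDR peaks, and lay 1493 to 16773 bp from an IDR summit.

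**Figure D5:**
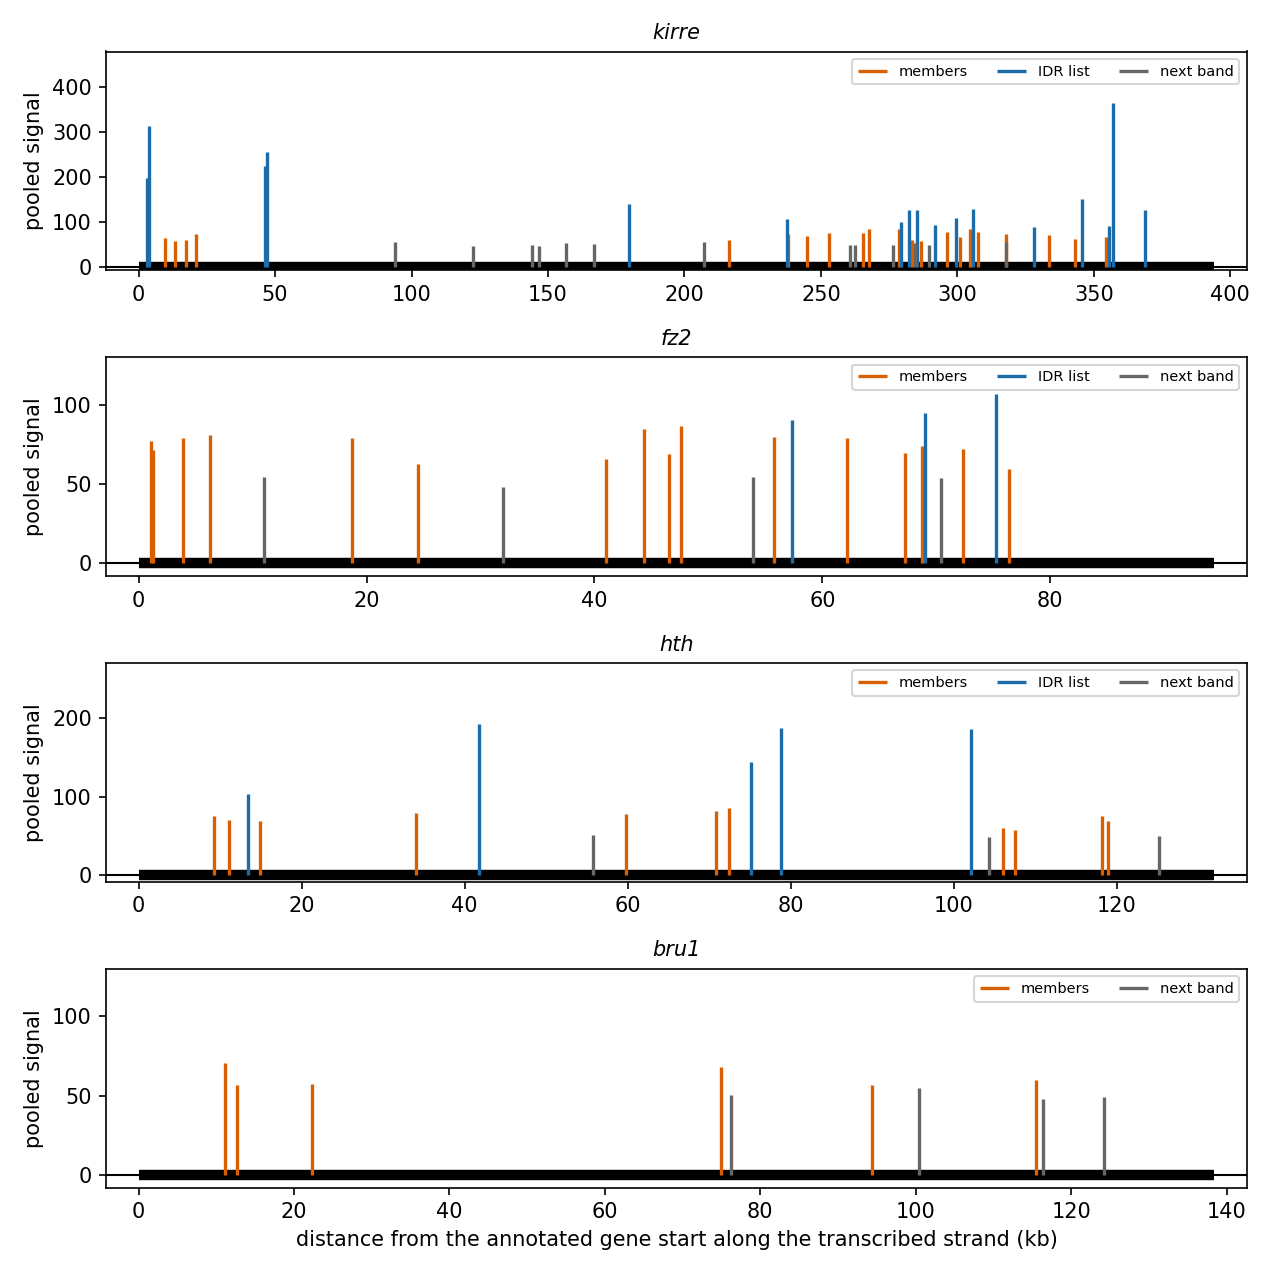
Pooled signal of members, IDR peaks and next-band regions along kirre, fz2, hth and bru1, by distance from the annotated gene start. In fz2 the highest of the 16 members reaches 86.7 and the highest of the 3 IDR peaks 107, in hth the 11 members stay at 57.5 to 85.7 under 5 IDR peaks at 104 to 193, and bru1 holds 6 members without an IDR peak.

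Among genes without an IDR peak, the most members lay in bru1 (an RNA-binding splicing regulator of flight muscle) with 6. With 5 each came trol (perlecan), Snap25 (a synaptic SNARE protein), beat-IIIc (an immunoglobulin protein of the beat family) and Sytbeta (a synaptotagmin), the first 4 of 6 such genes by signal. In bru1, 5 of the 6 were found in both replicates, with signals of 28.0 to 39.2 in replicate 1 and 16.1 to 35.9 in replicate 2. In beat-IIIc and Sytbeta all 5 were found in both. The IDR summits nearest to the bru1 members were 81446 to 151028 bp away.

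Of 36 gene lists, the signalling pathways other than Hedgehog held members in a larger share of their genes than the 13.0% of all protein-coding genes, and the median gene span of each was also longer. The epidermal growth factor receptor (EGFR) pathway had a member in 8 of 13 genes (an IDR peak in 11), the FGF pathway in 6 of 7 (5), the Hippo pathway in 8 of 15 (8) and the JAK-STAT pathway in 4 of 9 (3). The Wingless pathway had a member in 8 of 20 (10), the BMP pathway in 6 of 17 (11), the Notch pathway in 6 of 18 (10) and the Hedgehog pathway in 1 of 11 (3), namely rdx. In the EGFR pathway the highest members lay in introns of Star (S, which traffics EGF ligands), Egfr (the receptor) and vein (vn, a ligand), with pooled signals of 84.7, 81.4 and 81.2. The Egfr member had 47.9 in replicate 1 and 32.8 in replicate 2. In the FGF pathway the ligand gene pyramus (pyr) and the receptor gene breathless (btl) held a member and no IDR peak, unlike the other 4 genes with a member. The pyr member had 53.1 in replicate 1 and 40.1 in replicate 2. In the Hippo pathway scalloped (sd), which encodes its TEAD factor, had 2 members and no IDR peak. The higher had 48.1 in replicate 1 and 40.0 in replicate 2, at a site within the gene's span, 562 bp upstream of a start.

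In the BMP pathway the highest members lay in introns of schnurri (shn, a transcriptional effector), thickveins (tkv, a type I receptor) and sog (a BMP-binding inhibitor), with pooled signals of 85.4, 84.6 and 71.5. In the Notch pathway they lay in N, fringe (fng, a glycosyltransferase that modifies Notch) and mastermind (mam, a co-activator), with 87.4, 86.9 and 83.3. In the Wingless pathway they lay in the receptor genes fz and fz2 and in Notum (a secreted deacylase of Wingless), with 86.9, 86.7 and 83.6. All genes of the Wingless list with a member also held an IDR peak, except pan, the TCF gene. The JAK-STAT ligand gene upd3 held a member found in replicate 1 alone, with 48.0 there.

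Among lists of regional and tissue genes, the Hox genes had a member in 7 of 8 genes (an IDR peak in 5), where proboscipedia (pb) and Sex combs reduced (Scr) held a member and no IDR peak. The higher pb member had 33.9 in replicate 1 and 47.7 in replicate 2. The axon guidance list had 16 of 23 (14), led by NetB (a Netrin), unc-5 (a Netrin receptor) and Fas2 (an adhesion protein), and the nuclear receptor and ecdysone list had 12 of 24 (15), led by ftz-f1, Hr4 and EcR. The appendage list had 9 of 21 (5), led by hth, bab1 and sd, and the epidermis list 6 of 12 (3), led by grainyhead (grh), forked (f) and dsx-c73A. The Malpighian tubule and hindgut list had 6 of 16 (5), led by kirre, caudal (cad) and hbs, and the GATA and hemocyte list 6 of 16 (2), led by lozenge (lz), u-shaped (ush) and Hemolectin (Hml). In the appendage, epidermis, tubule and hemocyte lists, 5, 3, 4 and 4 genes held a member and no IDR peak. Over all protein-coding genes, 923 of the 1813 with a member held no IDR peak, so these counts do not set the lists apart. The share with a member was above the 13.0% of all protein-coding genes in each of these lists. The median gene span of each was also longer than 2166 bp, with 30563 bp for the Hox and 43363 bp for the axon guidance genes. The next band lay in 5 Hox, 18 axon guidance and 12 nuclear receptor and ecdysone genes.

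Mesoderm and muscle identity genes had a member in 7 of 25 (an IDR peak in 9), led by Mef2, kn and Doc2, and muscle structure genes in 4 of 19 (6), led by Zasp52, Mlp84B and Tm1. Tracheal genes had 5 of 12 (7), led by grh, trachealess (trh) and bnl. Proneural and neuroblast genes had 6 of 21 (5), led by brat, elav and insc, and differentiated neuron genes 7 of 18 (4), led by nAChRalpha6, Syx1A and para. Segmentation genes had 3 of 23 (4), namely cad, nkd and inv, close to the share of all genes. Retinal determination genes had 3 of 11 (4), namely hth, ey and dac, and the list of tio, tsh and regional factors 4 of 14 (3), namely hth, disco-r, Ubx and salm. Apart from segmentation, these shares were above the 13.0% of all protein-coding genes. The median gene span of each list was also longer than the 2166 bp of all protein-coding genes.

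The other lists are given with the genes that held a region of each replicate's own ranks 3794 to 7586 where those counts differ most. Of all protein-coding genes, 13.0% held a member. Polycomb and trithorax genes had a member in 2 of 22, namely ph-d and ph-p (4 in replicate 1 and 4 in replicate 2), and an IDR peak in 10. Insulator and interband genes had none of 14 and an IDR peak in 4. Cytosolic ribosomal protein genes had a member in 9 of 87 (13 in replicate 1 and 16 in replicate 2) and an IDR peak in 24, and 2 genes held both. The highest of these were RpL9, with 41.4 in replicate 1 and 42.1 in replicate 2, RpL5 with 42.7 and 42.3, and RpL38 with 33.6 and 48.0. All lay within 72 bp of a start of the gene. Mitochondrial ribosomal protein genes had 2 of 73, namely mRpL33 and mRpS5 (3 in replicate 1 and 6 in replicate 2), and an IDR peak in 15. The proteasome had 2 of 48 (Rpn11 and Rpn13) and an IDR peak in 2. Cell cycle genes had 5 of 22 (the highest E2f1, CycD and fzr) and 8, and apoptosis genes 3 of 13 (Debcl, Diap1 and hid) and 2. The highest E2f1 member, 204 bp from an IDR summit, and the CycD and Rpn13 members were found in neither replicate list.

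Families of short genes are given last. Chemosensory receptor genes had a member in 7 of 179 and an IDR peak in 3, cuticle protein genes 6 of 115 and 1, and core histone genes none of 111 and none. Of 290 transfer RNA genes, 16 had a member and 11 an IDR peak, and the 16 shared 10 members. No gene was in both sets, but with so few of the 290 in each, little overlap could arise. Of 301 small nucleolar and nuclear RNA genes 6 had a member (6 in the same ranks of replicate 1 and 18 in those of replicate 2) and 21 an IDR peak, and of 260 microRNA genes 11 and 9, with mir-276a, mir-9378 and mir-275 the highest. The counts from the replicates' own ranks also differed by over 1.5 times from those of the members in 11 further lists, each given for replicate 1 and then replicate 2: Hedgehog 1 and 2 genes, JAK-STAT 3 and 2, Hox 4 and 5, segmentation 5 and 2, retinal determination 5 and 4, muscle structure 8 and 4. In the others they were 0 and 1 for insulator and interband genes, 2 and 6 for the cell cycle, 1 and 2 for apoptosis, 0 and 2 for the proteasome and 10 and 13 for transfer RNA genes. Over all lists, 200 of 1874 distinct genes held a member.

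No member lay within tio or tsh, which stand near each other on 2L. The nearest to tio (2L:22019208-22025734) was 5685 bp from it, at 22013523 with a pooled signal of 72.6, 30.0 in replicate 1 and 44.1 in replicate 2. The nearest to tsh (2L:21828593-21837011) was 10498 bp away, at 21847509 with a pooled signal of 68.0, 35.8 in replicate 1 and 36.4 in replicate 2. Within 100 kb of tio lay 17 members, or 82.3 per Mb against 32.7 per Mb over the arm, beside 4 IDR peaks (19.4 per Mb against 32.2 per Mb). All pooled regions were also dense there, with 479 per Mb against 275 per Mb over the arm. Each replicate's own ranks 3794 to 7586 placed 8 regions there in replicate 1 and 17 in replicate 2, so the density differed between the libraries. Within 100 kb of tsh lay 10 members (48.0 per Mb) and 7 IDR peaks (33.6 per Mb). All pooled regions stood at 360 per Mb there, against 275 per Mb over the arm, and the lowest regions at 76.8 per Mb. The member at 21929738 lay within 100 kb of both genes and is counted for each.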

How the data were processed

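Tio ChIP-seq was analysed from 4 dm6 region lists of 1 group: the pooled list, the lists of replicates 1 and 2, and the IDR list. The authors deposited, per region, an interval, a summit, a signal value and a significance value. The signal and the −log10 q-value are as deposited by the authors; columns and their order were read from the files. Per the deposited notes, the replicate and pooled lists were made from alignments with 1 control. The sources used here do not name the aligner, peak caller, IDR threshold, read depth or signal scaling, so no sampling error of a signal can be given, and the Wilson intervals cover counting error of regions only. dm3 lists were not used here, and 0 columns belonged to other samples.

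Members are ranks 3794 to 7586 of the pooled list by signal; equal-sized bands above and below were treated alike. Summits were matched within 100 bp. Genes and start sites came from Ensembl 115 (BDGP 6.54), sequence from the RefSeq Release 6 genome (dm6). Flanks were windows of 201 bp centred 500 bp to either side. Named were the 10 members of highest signal, 5 with the best worst replicate rank, 5 each with the highest and lowest replicate ratio, 5 of highest signal away from IDR peaks, the regions at the limits, the genes with the most members and the 3 highest genes of each list; others are said to be named after their values were seen, and where a list holds few genes with a member, all of them or those without an IDR peak are named. The members, motifs and gene lists were chosen with earlier results of these data known. Matching, motif, G+C and offset steps were tested on simulated data. Python 3.11.15, numpy 2.4.6, pandas 2.3.3, scipy 1.17.1 and matplotlib 3.10.9 were used. Alternatives tried were other matching distances, windows and annotations, parts of the band, and each replicate alone.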

Additional observations from a re-analysis of the deposited data

How the results depend on the processing

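For 8 results, 34 of 57 alternatives left the value within its spread (for counts, within 1.5 times) and 23 moved it; none had a test to pass. The median log2 ratio (0.15 to 0.17) and the members off the main arms (0 throughout) are left out of these counts. The share of members found in both replicate lists, 75.9%, was 53.02% when summits had to lie within 50 bp and 90.2% within 200 bp, and 82.5% in the upper and 69.2% in the lower part of the band. The share among the leading regions of both, 20.1%, was 13.9%, 24.7%, 38.5% and 1.79% in the same order. Promoters held 18.3% with a window of 500 bp, 44.4% with 2 kb and 24.8% with start sites of protein-coding genes only. The share near an IDR summit, 13.2%, was 7.04% at 500 bp, 40.5% at 5 kb, 16.3% in the upper and 10.1% in the lower part of the band, and 7.22% without the members within 250 bp, an alternative chosen after seeing the data. Genes with a member and no IDR peak numbered 489 and 542 in the upper and lower part, and listed genes with a member 124 and 127, each from fewer regions. With the band taken from 1 replicate's list alone, the share near an IDR summit was 20.5% to 24.7% and the mean G+C content 35.7% to 36.9%. Such a band can hold the IDR peaks themselves, which the members exclude, so the shares near an IDR summit are not alike. At most their own width from an IDR summit lay 598 regions in replicate 1 and 731 in replicate 2, against 261 members. The cause of these moves was not tested, other than the distances, windows, source lists and numbers of regions that define them. Replicate matching, the leading share and the log2 ratio need both lists and have no value with 1 replicate. With the members beyond 1 kb the share near an IDR summit is 0 by construction. No paired analysis was possible because the design has 1 group. Depth is unknown, so weak signals cannot be given a counting error.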
